A study of Mus musculus with 6 samples.

Results

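The genes described here are 9 genes that mark or serve the pancreatic duct: the keratins Krt7, Krt8, Krt18, Krt19 and Krt20, the transcription factor Sox9, the anion channel gene Cftr, the mucin gene Muc1 and the carbonic anhydrase gene Car2. They were taken by symbol from 18193 genes with at least 1 probe set that names a single gene. Together they had 14 of the 45037 probe sets tested, with 1 probe set for each of 6 genes, 2 for Cftr and 3 each for Krt8 and Sox9. RNA from whole pancreas was measured on 6 Affymetrix arrays, 1 per sample, in 3 Rkip-1 KO mice and 3 WT mice. All were 8 weeks old, came from a single colony and carried a C57BL/6 background. Per the labels these are biological replicates. The sex of the mice and the design of the knockout allele are not stated there. Rkip-1 is the protein encoded by Pebp1, an inhibitor of the kinase Raf-1. The knockout group is called KO and the wild-type group WT.

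Ducts carry the enzyme-rich fluid of the acini to the gut and add bicarbonate to it. Carbonic anhydrase 2, the product of Car2, makes bicarbonate inside the duct cell, and the Cftr channel in the apical membrane drives its secretion. Sox9 maintains duct cells and marks the progenitors from which the pancreas forms. Keratins assemble as pairs of a type I and a type II chain. Krt18, Krt19 and Krt20 are type I, and Krt7 and Krt8 are type II. Krt8 and Krt18 are made by acinar cells as well as ducts, while Krt7 and Krt19 are classical duct markers. Muc1 is a membrane-spanning mucin of the apical surface of duct and acinar cells.

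All 6 arrays had medians between 2.97 and 3.02 on the log2 scale and correlated with each other at 0.989 to 0.993 over the tested probe sets. Pebp1 followed the labels. Its brightest probe set measured 5.89, 6.50 and 5.71 in KO replicates 1, 2 and 3, against 9.81, 10.01 and 9.81 in WT replicates 1, 2 and 3, a 14.3-fold lower level in KO (limma adjusted p of 5.05e-05). The acinar enzyme genes Cel and Cpa1 lay at 14.26 to 14.37 in KO and 14.31 to 14.39 in WT, and insulin (Ins2) at 12.53 to 12.67 in KO and 12.67 to 12.70 in WT, so the markers of pancreas were present in all arrays. Among the duct genes, Cftr was below the array medians in all 6. In bulk tissue, fewer duct cells and less RNA per duct cell cannot be told apart.

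Among the 9 duct genes 0 passed the test between genotypes, and their values went in both directions. The clearest differences were higher values of Muc1 and Sox9 in KO and a lower value of Car2. Muc1 averaged 9.14 ± 0.20 in KO arrays and 8.55 ± 0.07 in WT arrays (log2 values, SD, n = 3 each), and Sox9 averaged 6.12 ± 0.31 in KO and 5.60 ± 0.20 in WT. Car2 averaged 3.83 ± 0.26 in KO and 4.21 ± 0.10 in WT. Krt8, Krt18 and Cftr differed by less than 0.1 log2 units, and the KO and WT values of Krt7, Krt19 and Krt20 overlapped.

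The test was limma on all 45037 probe sets, of which 44 passed at an adjusted p under 0.05, a background of 0.0977%. At an unadjusted p under 0.05, 5 of the 14 duct probe sets differed, the 3 of Sox9 and that of Muc1 being higher and that of Car2 lower in KO. Of all probe sets 8.68% were at that level, 4.01% higher and 4.66% lower. Groups did not overlap in 4 of the 14, with KO above WT in 3 and below it in 1, where 13.5% of all probe sets did not overlap, 6.97% above and 6.51% below. These counts describe genes that were chosen with their results known, and the 3 Sox9 probe sets measure 1 gene. The 95% intervals given below are per probe set and not adjusted for the number tested.

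**Figure D1:**
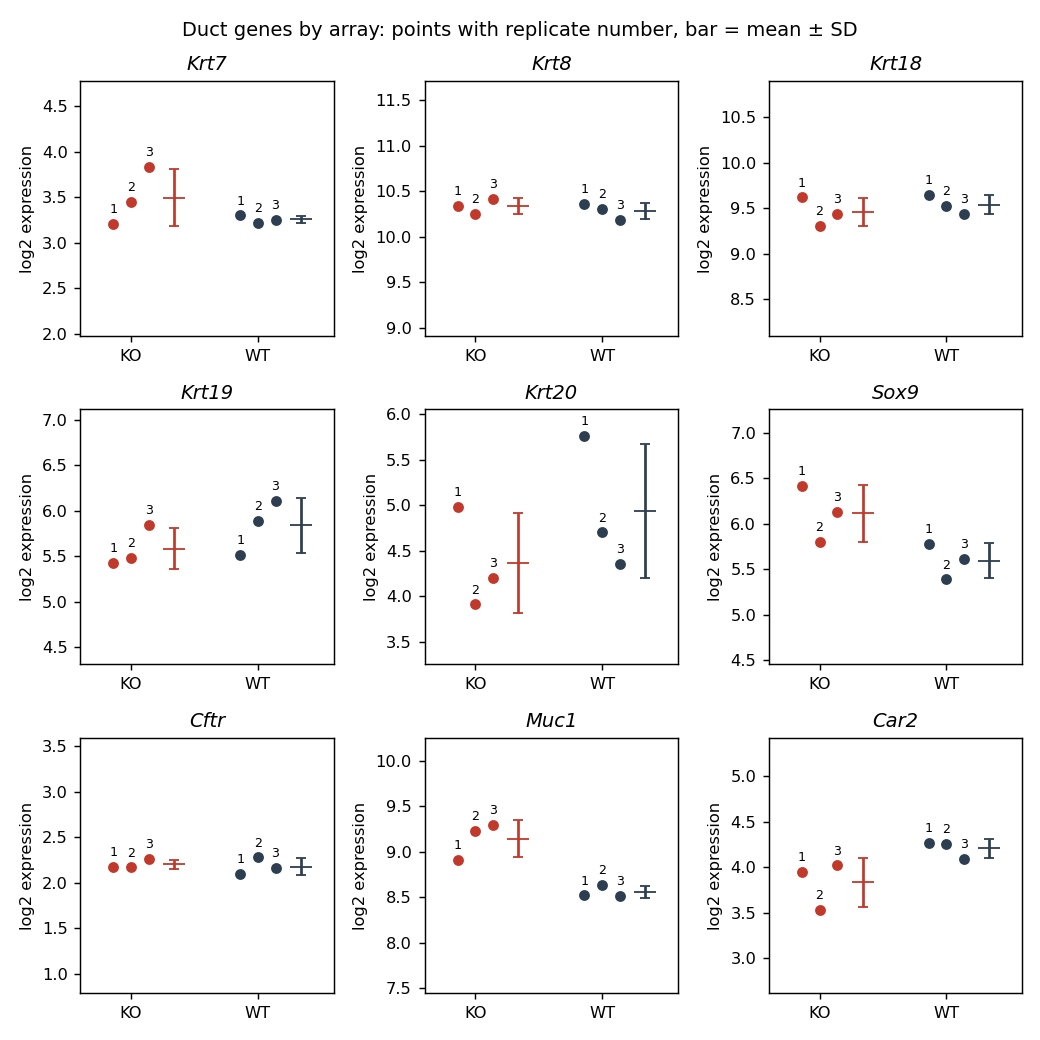
Log2 expression of the brightest probe set of each duct gene in the KO (left) and WT (right) arrays, with the replicate number above each point and the mean ± SD beside each group (n = 3). All panels span 2.8 log2 units. Muc1 and Sox9 lie higher in all KO arrays than in any WT array, Car2 lies lower, and the other 6 genes overlap.

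Muc1 showed the smallest p of the 9 genes. It measured 8.91, 9.23 and 9.29 in KO replicates 1, 2 and 3, against 8.52, 8.63 and 8.51 in WT replicates 1, 2 and 3. The 3 KO arrays were all above the 3 WT arrays, and KO replicate 1 was the closest to WT. The level was 1.51-fold higher in KO, which is 0.59 log2 units (95% interval 0.34 to 0.85), with a limma adjusted p of 0.177. With each array left out in turn the difference was 0.52 to 0.71, and over all alternatives the adjusted p ran from 0.0668 to 0.51. Ranked by p, it was probe set 118 of 45037.

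Krt20 had the largest difference in the other direction by brightest probe set, -0.57, although it varied more among the WT mice than between the genotypes. The 250 bases before the starts of Muc1 and Krt20 are shown because these are the duct genes with the largest higher and largest lower value in KO. The sequences are from RefSeq on GRCm38.p6, where Muc1 lies on the plus strand (chr3:89228806-89229055) and Krt20 on the minus strand (chr11:99438154-99438403). They are written 5′ to 3′ in the direction of the gene and end at the base before the start, with motif matches in capitals.
Muc1: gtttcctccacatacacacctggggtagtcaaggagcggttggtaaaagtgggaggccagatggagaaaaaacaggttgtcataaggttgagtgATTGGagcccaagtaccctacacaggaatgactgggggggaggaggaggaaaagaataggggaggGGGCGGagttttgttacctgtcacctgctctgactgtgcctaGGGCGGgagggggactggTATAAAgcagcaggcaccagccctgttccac
Krt20: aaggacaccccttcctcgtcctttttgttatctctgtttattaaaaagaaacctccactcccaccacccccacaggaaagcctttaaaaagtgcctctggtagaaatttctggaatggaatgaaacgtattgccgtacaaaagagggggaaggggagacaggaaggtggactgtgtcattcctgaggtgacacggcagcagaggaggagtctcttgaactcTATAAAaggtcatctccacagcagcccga
Both hold TATAAA, at 31 to 26 bases before the start in Muc1 and 29 to 24 bases in Krt20, a motif found in 12.4% of the 32851 promoters of that length. Muc1 also holds GGGCGG at 91 and at 49 bases before the start (32.7% of promoters) and CCAAT on the reverse strand (33.8%). The SOX-type ACAATG (10.7%), the ETS-type CGGAAG (13.6%) and the STAT-type TTCNNNGAA (7.02%), searched on both strands like the others, had no match in either window. Promoters of 6 of the 9 genes were in the sequence table. Those of Krt19, Sox9 and Car2 were not used here. Of the others, Krt7 held 4 matches and Cftr 6, all of them GGGCGG on either strand and some overlapping in Cftr, while Krt8 and Krt18 held 0 matches to the 6 motifs.

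Sox9 was higher in KO by each of its 3 probe sets. The brightest measured 6.42, 5.80 and 6.13 in KO replicates 1, 2 and 3, against 5.78, 5.39 and 5.62 in WT replicates 1, 2 and 3. The groups were separate by a narrow gap, between KO replicate 2 and WT replicate 1. The level was 1.44-fold higher in KO, which is 0.52 log2 units (95% interval 0.17 to 0.88), with a limma adjusted p of 0.389. The second probe set measured 5.81, 5.11 and 4.95 in KO and 4.78, 4.49 and 4.95 in WT. Here KO replicate 3 and WT replicate 3 met, and KO replicate 1 stood above all other arrays. Its difference was 0.55 (95% interval 0.08 to 1.01, limma adjusted p of 0.505), and without KO replicate 1 it was 0.29. The third lay below the array medians in all arrays, with 2.68, 2.81 and 2.64 in KO and 2.38, 2.55 and 2.30 in WT. At that level its difference of 0.30 can be too small. For the brightest probe set the difference without KO replicate 1 was 0.37, and with each array left out in turn it was 0.37 to 0.68.

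The keratin pair shared by acinar and duct cells was close between genotypes. Krt8 measured 10.34, 10.25 and 10.42 in KO replicates 1, 2 and 3, against 10.36, 10.31 and 10.19 in WT replicates 1, 2 and 3, a difference of 0.05 with a 95% interval of -0.16 to 0.26. The groups overlapped. Its other probe sets differed by 0.02 each, with intervals from -0.20 to 0.23 and from -0.21 to 0.25. Their name suffix marks sets that may bind several transcripts, so they may read other keratins too. Krt18 measured 9.62, 9.31 and 9.44 in KO and 9.65, 9.53 and 9.44 in WT. It differed by -0.09 with an interval of -0.33 to 0.15, and replicate 1 was the highest array in both groups. For both genes the intervals leave out changes of 0.4 log2 units or more in either direction. On GRCm38.p6 Krt8 and Krt18 are next to each other on chromosome 15, so the type I gene Krt18 lies at the edge of the type II cluster.

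The duct-restricted keratins Krt7 and Krt19 had differences of opposite sign. Neither passed, and the difference between them was not tested. Krt7 measured 3.21, 3.45 and 3.83 in KO replicates 1, 2 and 3, against 3.30, 3.22 and 3.25 in WT replicates 1, 2 and 3. Only KO replicate 3, and less so KO replicate 2, stood above WT, and the SD was 0.31 in KO and 0.04 in WT. The difference of 0.24 (95% interval -0.08 to 0.56, limma adjusted p of 0.687) was 0.07 without KO replicate 3 and 0.39 without KO replicate 1. All Krt7 values were below the arrays' upper quartile of 4.52 or more, where differences can be too small. Krt19 measured 5.43, 5.48 and 5.85 in KO and 5.52, 5.89 and 6.11 in WT. The groups overlapped, with a difference of -0.26 (95% interval -0.62 to 0.11, limma adjusted p of 0.712). It was -0.12 without WT replicate 3 and -0.42 without WT replicate 1.

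Krt20, a keratin best known from intestinal epithelium and urothelium, was the most variable of the 9 genes. It measured 4.98, 3.91 and 4.20 in KO replicates 1, 2 and 3, against 5.76, 4.70 and 4.35 in WT replicates 1, 2 and 3. Replicate 1 was the highest array of both groups, and the values overlapped. The SD was 0.55 in KO and 0.73 in WT, and the difference of -0.57 had a 95% interval of -1.36 to 0.21 and a limma adjusted p of 0.701. It was -0.16 without WT replicate 1 and -0.88 without KO replicate 1. Xist, a transcript of the inactive X chromosome of females, was unevenly spread, with 4.43, 9.11 and 9.79 in KO replicates 1, 2 and 3, against at most 4.30 in WT replicates 1 and 2 and 9.09 in WT replicate 3. With its level as a covariate the Krt20 difference was -0.24. The uneven spread concerns all genes, not only Krt20. In the same fit Muc1 differed by 0.54, Sox9 by 0.6 and Car2 by -0.31 (limma adjusted p of 0.34, 0.44 and 0.677).

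**Figure D2:**
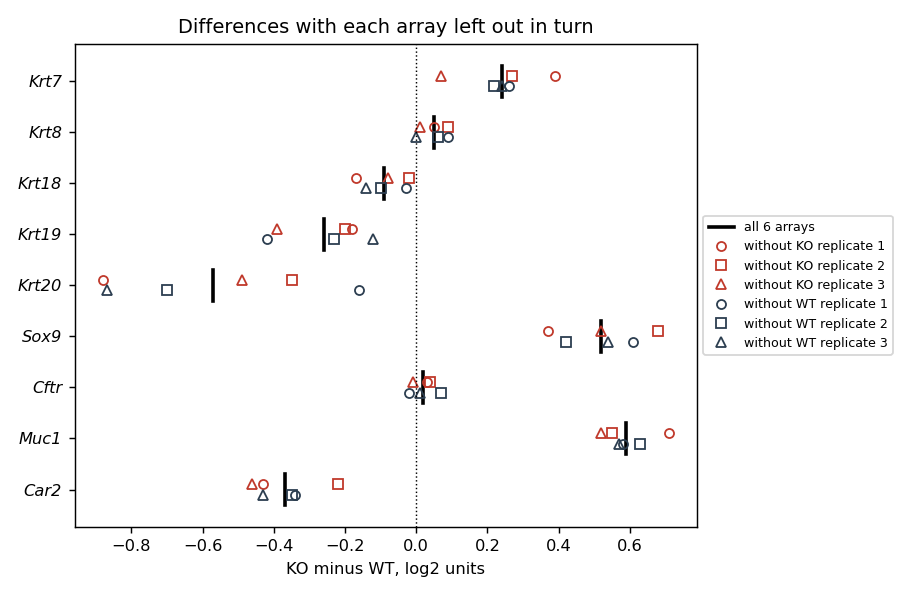
KO minus WT difference of the brightest probe set of each duct gene, in log2 units, with all 6 arrays (black bar) and with each array left out in turn (red symbols for KO arrays, dark symbols for WT arrays). Muc1 stays between 0.52 and 0.71 and Sox9 between 0.37 and 0.68, while Krt20 runs from -0.88 to -0.16.

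Car2 and Cftr, the secretory genes of the duct set, had low values. Car2 measured 3.95, 3.53 and 4.02 in KO replicates 1, 2 and 3, against 4.27, 4.26 and 4.09 in WT replicates 1, 2 and 3. The 3 KO arrays were all below the 3 WT arrays, with KO replicate 3 and WT replicate 3 nearly touching. The difference was -0.37 (95% interval -0.67 to -0.08, limma adjusted p of 0.467). It was -0.22 without KO replicate 2, and as all Car2 values were below the upper quartile, its size can be too small. Cftr measured 2.18, 2.17 and 2.26 in KO and 2.10, 2.28 and 2.16 in WT by its brighter probe set, and 1.94 to 2.01 in KO and 1.86 to 2.03 in WT by the other. All 12 values were below the array medians, so no fold is given and a difference in Cftr could not be seen at this signal.

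**Figure D3:**
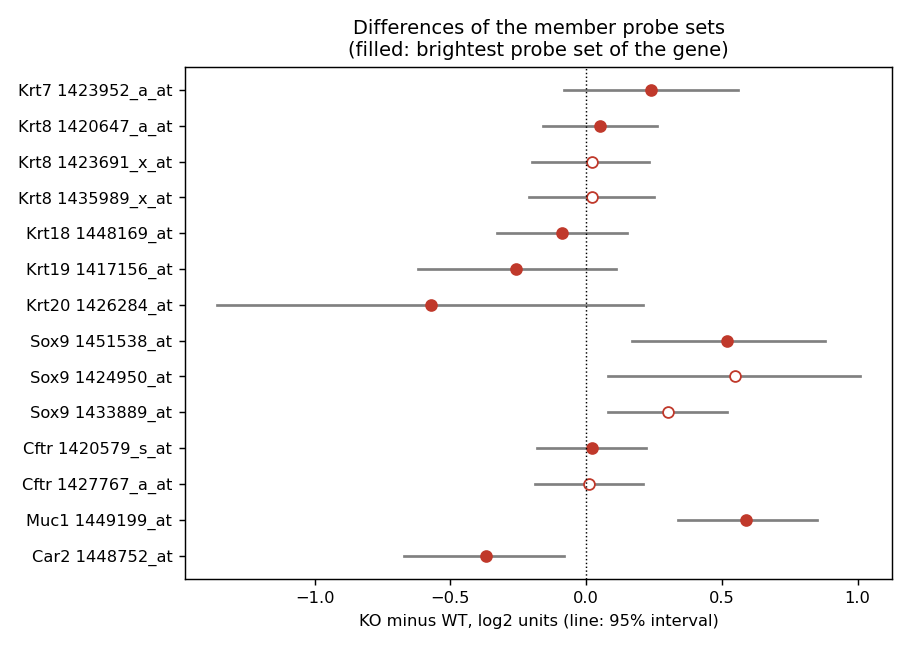
KO minus WT difference in log2 units for the 14 probe sets of the 9 duct genes, with 95% intervals from limma that are not adjusted for the number of probe sets. The intervals of Muc1, Car2 and all 3 Sox9 probe sets leave out 0, and those of the keratins and Cftr include it.

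Other genes of duct function, in lists also chosen with earlier results known, are given by the brightest probe set of each gene. Values in both directions are the background here, with 9067 of all 18193 genes higher and 9126 lower in KO. Over all 18193 genes 0.132% passed, 10.1% had an unadjusted p under 0.05 (4.55% higher and 5.58% lower) and the median difference was 0.00. Of 18 measured genes of bicarbonate and fluid secretion 0 passed, 6 had higher and 12 lower values in KO, and the median was -0.05. At an unadjusted p under 0.05 there were 2 higher and 1 lower. The water channel gene Aqp1 was lower, and the scaffold gene Slc9a3r1, whose protein binds Cftr, and Slc26a3 were higher. Aqp1 measured 6.02, 6.18 and 6.30 in KO and 6.42, 6.58 and 6.40 in WT, without overlap, a difference of -0.30 (limma adjusted p of 0.447). Slc9a3r1 measured 7.86, 8.08 and 8.20 in KO and 7.74, 7.85 and 7.62 in WT, again without overlap, a difference of 0.31 (limma adjusted p of 0.469). The exchanger gene Slc26a3 differed by 0.30 by its brightest probe set, at values below the array medians, and by 0.05 with its probe sets averaged. The bicarbonate cotransporter gene Slc4a4 differed by 0.12 (0.03 to 0.21 with each array left out) and the secretin receptor gene Sctr by -0.04. The last 2 were chosen after their values were seen.

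Among 15 measured duct and epithelial transcription factors 0 passed, with a median of -0.03, and at an unadjusted p under 0.05 there were 4 higher and 2 lower. The 4 were Elf3 and Ehf, epithelial factors of the ETS family, Tead1, the DNA-binding partner of the Hippo pathway's Yap1, and Grhl2, a regulator of epithelial junction genes. Ehf measured 6.48, 6.17 and 6.43 in KO replicates 1, 2 and 3, against 5.91, 5.73 and 5.97 in WT replicates 1, 2 and 3, a difference of 0.49 (limma adjusted p of 0.254). Elf3 measured 4.52, 4.64 and 4.84 in KO and 4.17, 4.16 and 4.29 in WT, a difference of 0.46 (limma adjusted p of 0.25). Tead1 measured 6.95, 6.42 and 6.56 in KO and 6.25, 6.17 and 6.02 in WT, a difference of 0.49 (limma adjusted p of 0.351). By the brightest probe set, KO lay above WT without overlap in these 4 of the 15 genes. It lay below WT without overlap in 1, the Notch effector Hes1. Of all 18193 genes, 1250 lay above and 1376 below without overlap. The 2 lower at an unadjusted p under 0.05 were Gata6 at -0.29 and Hes1 at -0.21. Several of these differences were smaller when all probe sets of a gene were averaged. Ehf then differed by 0.25 (limma adjusted p of 0.53), Tead1 by 0.23, Grhl2 by 0.15 in place of 0.28, and Gata6 by -0.11, while Elf3 stayed at 0.46 and Hes1 at -0.21. Grhl2 was 0.14 without WT replicate 1. Onecut1, a factor of duct development chosen after its values were seen, differed by -0.15, or -0.09 with its probe sets averaged.

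Of 18 measured duct surface, junction and secreted proteins 0 passed, with a median of -0.05. Pigr, the receptor that carries antibodies across epithelia, came nearest, with 3.80, 3.63 and 3.69 in KO replicates 1, 2 and 3, against 2.95, 3.20 and 2.93 in WT replicates 1, 2 and 3. The groups did not overlap, and the WT values were close to the medians of the arrays, where the difference of 0.68 can be too small (limma adjusted p of 0.063). The annexin gene Anxa3 at -0.52 and Bicc1, an RNA-binding protein whose loss causes cystic kidneys in mice, at -0.25 were lower at an unadjusted p under 0.05. Anxa3 measured 5.35, 5.83 and 6.04 in KO and 6.41, 6.43 and 5.94 in WT, so its groups overlapped, and without KO replicate 1 its difference was -0.33. Epcam differed by -0.22 (-0.33 to -0.10 with each array left out) and Prom1 by 0.17 (0.07 to 0.24), and both were chosen after their values were seen. Of 14 keratin anchors and other intermediate filaments 0 passed, and the mesenchymal filament gene Vim differed by -0.38 at an unadjusted p under 0.05 and by -0.21 without KO replicate 1. The desmosome gene Dsp differed by -0.11, or -0.02 with its probe sets averaged, and was likewise chosen after its value was seen.

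The wider keratin and mucin families were mostly dim. Among 43 other keratin genes 0 passed and the differences ran from -0.16 to 0.35, the highest being Krt16, at 2.47 to 2.88 in KO and 2.29 to 2.45 in WT, all below the array medians. In 38 of the 43 all arrays were below their upper quartile, and in 19 below their medians. Among 9 other mucin genes 0 passed, 0 had an unadjusted p under 0.05 and the differences ran from -0.06 to 0.19. All 9 were below the upper quartile in all arrays and 5 below the medians, so differences in these mucins could be too small to see at this signal.

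**Figure D4:**
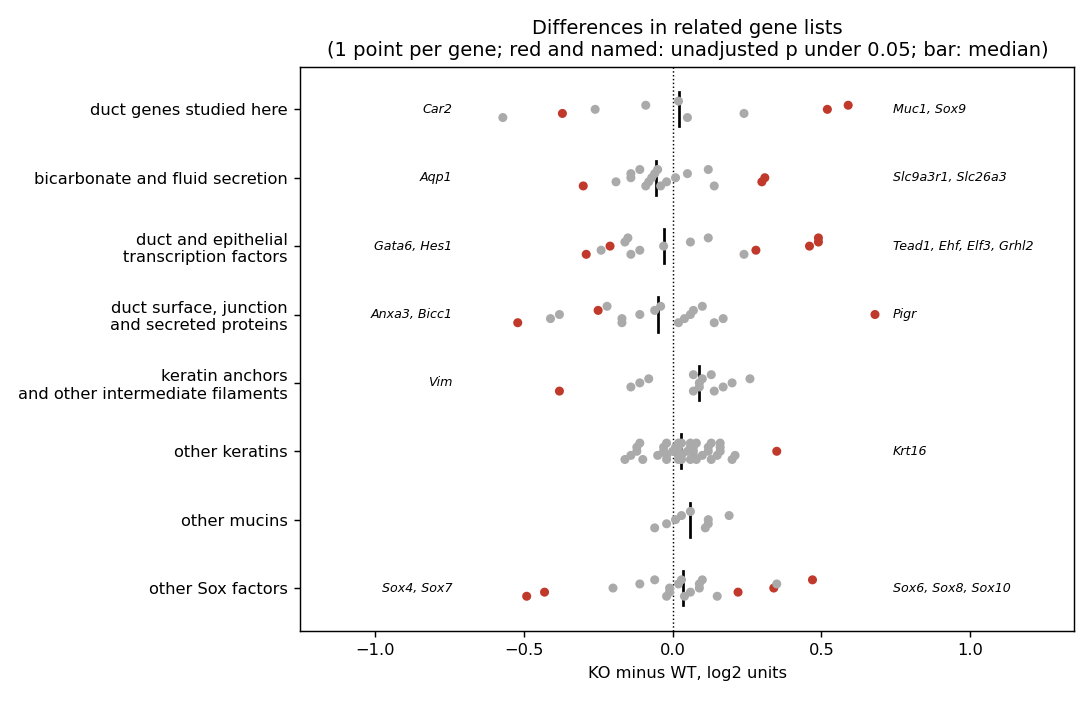
KO minus WT difference in log2 units for each gene of the duct list and of 7 related lists, with 1 point per gene at its brightest probe set and a black bar at the list median. Red points, named at the side, had an unadjusted p under 0.05, and none of the genes shown passed at an adjusted p under 0.05.

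The 2 duct genes that spanned more than 1 log2 unit over the arrays, Krt20 and Sox9, were compared with the other 18192 genes by the root mean square difference of mean-centred log2 values over the 6 arrays. Nearest to Krt20 were Slc7a3, a cationic amino acid transporter gene (0.204), the serotonin transporter gene Slc6a4 (0.214) and Bex2 (0.232). Slc7a3 measured 6.20, 5.36 and 5.72 in KO and 6.70, 6.21 and 5.74 in WT, so replicate 1 was high in both groups there too. Nearest to Sox9 were Gm28453 (0.0375), Bcl3, a cofactor of NF-kappaB (0.0788), and Wdr66 (0.104). This likeness describes 6 arrays and was not tested.

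Markers of other cell types differed between arrays beside these results. Stellate cell and fibroblast markers were lower in 8 of 9 genes, of which 0 passed. Their summed linear level was 3000 to 4240 in KO arrays and 4360 to 5680 in WT arrays, with Col3a1, the brightest, weighing most. The largest differences were in Postn (-0.82) and the collagen genes Col1a1 (-0.61), Col3a1 (-0.50) and Col1a2 (-0.43). Lum differed by -0.32, Dcn by -0.19, Pdgfra by -0.05 and Pdgfrb by -0.02, while Fbln1 was higher by 0.16. Fat markers were lower in 4 of 5 genes, of which 0 passed and 0 had an unadjusted p under 0.05. Their sums were 573 to 920 in KO and 773 to 1530 in WT, which overlap, and Fabp4, the brightest, weighs most in them. KO replicate 1 had the lowest sum for fat, fibroblast and macrophage markers. Of the fat markers 2 were below the array medians in all arrays. KO replicate 1 was also the KO array with the highest Sox9 and Krt20 and the lowest Muc1. Mesothelium also makes keratins. Its markers were higher in 2 of 8 genes and below the medians in all arrays for 2, with sums of 135, 201 and 179 in KO replicates 1, 2 and 3, against 127, 159 and 117 in WT replicates 1, 2 and 3. Without Upk1b, a choice made after seeing the data, the sums were 50.2, 104 and 105 in KO and 80.1, 118 and 76.0 in WT, and the groups overlapped. Upk1b, a uroplakin gene on that list, was higher by 0.99 and passed (limma adjusted p of 0.0167), while Upk3b differed by -0.23 and Msln by -0.05, both chosen after their values were seen. Without KO replicate 1 these were 0.42 and 0.12. The Upk1b call was lost in 6 of 16 alternatives, with limma adjusted p of 0.0608 to 0.156. With its probe sets averaged its difference was 0.46 (limma adjusted p of 0.156), and the call was also lost without KO replicate 1, KO replicate 2, WT replicate 2 or WT replicate 3. Markers of intestinal epithelium, where Krt20 is also made, had sums of 82.0 to 92.3 in KO and 80.4 to 83.0 in WT, and 6 of 11 were below the medians in all arrays. The summed level of acinar markers was 164000 to 167000 in KO and 167000 to 168000 in WT, near the compressed top of the scale. Values were lower in KO in 10 of 12 acinar genes, with a median difference of -0.02. Ptf1a, the transcription factor of acinar cells, measured 9.11, 9.91 and 9.59 in KO replicates 1, 2 and 3, against 10.50, 10.08 and 9.72 in WT replicates 1, 2 and 3. Its groups overlapped, with a difference of -0.56 (limma adjusted p of 0.519) that was -0.35 without KO replicate 1. What part these differences in other cells have in the duct gene values was not tested.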

How the data were processed

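The deposited values are log2 expression, 1 per probe set and array, which the authors made by RMA (affy), per the submitters' processing notes. That method corrects background, equalises the arrays and summarises probes, so a shift shared by most genes cannot be seen and bright probe sets are compressed. Settings and versions are not given in the sources read here. Scanner files were not used here, so there are no detection calls, and the number of arrays limits the precision. P-values weigh the difference between genotypes against the spread within the groups, which limma estimates with information shared over probe sets.

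The table held 45101 probe sets. Leaving out 64 controls left 45037. In the platform annotation 34958 carried 1 gene symbol, 932 several and 9211 none. Symbols were updated by Entrez identifier through RefSeq genes of GRCm38.p6 for 34754, and 204 kept theirs. A gene with several probe sets was represented by the brightest.

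KO minus WT was tested in R 4.3.3 with limma 3.58.1 (lmFit, eBayes), two-sided, without covariates, with Benjamini-Hochberg adjustment over all tested probe sets. The fit was tested on simulated data, in which all added shifts were larger than the duct gene differences found here. Of the smaller added shifts 94% were recovered, with 15 false calls. Recovery of differences as small as those of the duct genes was not simulated. Groups came from the sample titles. The duct genes and gene lists were chosen with earlier results of these data known. The rule for named genes took all 9 duct genes, Pebp1, and from each list those past the threshold and up to 4 more of smallest p, of which some are given only within their list's counts. Cpa1, Ins2, Grhl2, Hes1 and the genes so marked in the text fall outside that rule, as choices made with their values known. Alternatives covered normalization, dim probe sets, variance model, weighted arrays, a block on replicate number, the Xist level, each array left out and the choice of probe sets. A few listed genes were not analysed here. Figures were drawn with matplotlib 3.10.9.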

Additional observations from a re-analysis of the deposited data

How the results depend on the processing

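Under each of the 16 other settings 0 duct probe sets passed at an adjusted p under 0.05. In the main fit 0 passed at an adjusted p under 0.1 either. Muc1 was under 0.1 in some of the other settings, lowest with an intensity trend and robust variance (limma adjusted p of 0.0668). Muc1, Sox9, Car2, Krt7, Krt18, Krt19 and Krt20 kept their direction in each setting that included them. Over all probe sets the 44 calls became 76 at an adjusted p under 0.1 and 22 with the Xist covariate. They became 25 without sets that may bind several transcripts and 16 to 41 with each array left out. Counted in genes, the calls were 24 with the brightest probe set per gene and 23 with the mean of a gene's probe sets. The cause was not tested, beyond fewer probe sets or arrays entering. Some differences near 0 changed sign. With equal array medians, a dimmer Krt8 set and the dimmer Cftr set each measured -0.01, and with a second quantile normalization that Cftr set measured -0.00. With each array left out, the 3 Krt8 sets ran from -0.00 to 0.09, -0.05 to 0.07 and -0.05 to 0.07, the Cftr sets from -0.02 to 0.07 and -0.04 to 0.05, Sctr from -0.10 to 0.04, Upk3b from -0.60 to 0.42 and Msln from -0.22 to 0.12. Sctr measured 0.02 with the Xist covariate. Deviations of same-numbered arrays from their group means had correlations of 0.188, -0.031 and -0.082. Deviations from a mean of 3 arrays are tied to each other. Whether arrays of the same number shared a batch or a pairing therefore cannot be told from these values. Not every array correlated best with its own number. With the replicate block 33 probe sets passed in all, and the Krt20 and Sox9 adjusted p were 0.308 and 0.196. Signals of Cftr, Krt7 and Car2 near background limit what can be seen.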

Other observations

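Other Sox factors had differences in both directions. Among 20 measured genes of that name, noncoding transcripts included, 0 passed, and at an unadjusted p under 0.05 there were 3 higher and 2 lower. Over all genes 10.1% were at that level, 4.55% higher and 5.58% lower. Sox6 measured 4.17, 4.37 and 4.29 in KO replicates 1, 2 and 3, against 3.78, 3.85 and 3.79 in WT replicates 1, 2 and 3 (limma adjusted p of 0.17). Sox7, an endothelial factor, measured 3.61, 3.74 and 3.60 in KO and 4.09, 4.10 and 4.06 in WT (limma adjusted p of 0.186). Sox4, a factor of pancreatic progenitors and islets, measured 8.63, 8.13 and 8.05 in KO and 8.88, 8.69 and 8.70 in WT (limma adjusted p of 0.389). In each of these 3 genes the groups did not overlap by the brightest probe set. Among the 20 genes KO lay above WT without overlap in 3 and below it in 3. Of all 18193 genes, 1250 lay above and 1376 below without overlap. The brightest probe set's differences of 0.47, -0.43 and -0.49 for Sox6, Sox7 and Sox4 became 0.27, -0.15 and -0.16 with all probe sets of a gene averaged.

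Among 15 other carbonic anhydrase genes 0 passed. Car3, an enzyme abundant in fat and muscle and the neighbour of Car2 on chromosome 3, measured 2.51, 10.09 and 10.01 in KO replicates 1, 2 and 3, against 9.19, 10.86 and 10.30 in WT replicates 1, 2 and 3. The fat hormone gene Adipoq measured 2.26, 5.73 and 5.65 in KO and 5.12, 6.99 and 6.06 in WT, with KO replicate 1 lowest again. Car2 itself measured 3.95 in KO replicate 1, between the other KO arrays.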
